A study of Homo sapiens with 18 samples.

Results

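The 6 arrays described here measured RNA of MDA-MB-231 and MDA-MB-468, a pair of established human breast cancer cell lines, after treatment with a control oligonucleotide, and the comparison is between the lines. They were chosen by title and label: 3 arrays of MDA-MB-231 with control ASO and 3 of MDA-MB-468 with control ASO, out of 18 arrays in the series. An ASO is an antisense oligonucleotide, here a gapmer, a short modified DNA strand with which RNase H can cut a matching RNA. The cells of all 6 arrays received the control ASO at 15 nM with a transfection reagent made for breast cancer cells and were collected after 48 h, so none is untreated. The other arrays held the same lines with an ASO directed at AL078604.2, a long non-coding RNA, and these serve below as a separate set of 6, and SKBR3, a HER2-amplified line, with its own control ASO or an ASO against LINC01269. The platform was Affymetrix Human Gene 2.0 ST, a 1-colour array whose probes lie along the whole transcript. Each line is 1 cell line, and the labels do not say whether the 3 arrays of a line came from separate cultures, so p-values measure the spread between these arrays, which may be technical.

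Both lines are triple-negative, that is, they lack the estrogen and progesterone receptors and HER2 amplification. Textbook accounts describe MDA-MB-231 as mesenchymal-like, with a deletion that takes CDKN2A and MTAP. They describe MDA-MB-468 as a basal-like epithelial line with EGFR amplification and loss of RB1 and SMAD4. Epithelial cells are held together by cadherin junctions, claudins and desmosomes and carry keratin filaments, whereas mesenchymal cells carry vimentin and are driven by transcription factors of the SNAI, TWIST and ZEB families.

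RB1, AXL, EMP3 and SNAI2 were higher on the arrays labelled MDA-MB-231, and KRT5, EGFR, CP, TF and TFPI were higher on those labelled MDA-MB-468. Basal markers went both ways: KRT5 differed by -1.34, but KRT14 by 1.28, and ELF5 and ROPN1B were also higher in MDA-MB-231. EGFR was near the top of the array in both lines, at percentile 98.2 in MDA-MB-231 and 98.7 in MDA-MB-468. EPCAM and VIM did not separate the lines in the direction these cells are known for, and they were not alone. The epithelial markers CD24, ESRP1, CLDN3, CLDN7, GRHL2, CLDN4 and OVOL2 lay at percentiles 76.4 to 99.6 in MDA-MB-231. In MDA-MB-468 they lay at percentiles 73.5 to 99.6. The reported losses of MTAP, CDKN2A and SMAD4 were not plain in the levels either, as given below. EPCAM, the epithelial adhesion molecule, lay at percentile 99.2 of all features in MDA-MB-231 and 99.3 in MDA-MB-468, and VIM, the gene of vimentin, lay below its MDA-MB-468 mean on the MDA-MB-231 arrays for all 3 of its features. CDH1, CDH2, CAV1 and KRT17, which would also tell the lines apart, have no feature with a symbol in the annotation used. Below, a line's name means the arrays so labelled.

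Of 53617 features, each a probe set for 1 transcript region, 28092 had a mean above the array median in at least 1 line and were tested. With an adjusted p under 0.05, 9501 features (33.8%) differed between the lines, 4708 of them higher in MDA-MB-231 (16.8%) and 4793 lower (17.1%). The differences were mostly small, with a median size of 0.412 log2 among these features. At least 1 log2, that is 2-fold, separated 365 of them (1.3%), 194 higher in MDA-MB-231 (0.691%) and 171 lower (0.609%), and 13 reached 2 log2. The balance of directions rests on the scaling. Deposited array medians were 5.41 on the MDA-MB-231 arrays and 5.21 to 5.22 on the MDA-MB-468 arrays, and with the deposited values left as they stood 10508 features were called higher and 2240 lower. That scaling adds about 0.19 log2 to the differences, and the lines and the scaling cannot be told apart, so the differences below are relative to the middle of each array. Of the genes named below as lower in MDA-MB-231, these no longer passed on the deposited scaling: ANKRD37, BNIP3L, CDKN2A, DDR1, EGFR, EGR1, FOSL2, FOXA1, FZD4, FZD7, GATA3, HK1, LOXL2, LRP6, MIR23B, MIR31HG, MME, NRARP, OCLN, ROR1, SOX2, TFF1, TOP2A and the feature of ZNF322 with the smaller difference. B2M changed sign there. With the spread estimated over all 18 arrays, these genes no longer passed: CD44, DDR1, ELF5, ESRP2, FOXA1, HK1, ICAM1, IL32, JUNB, KRT16, KRT4, LOXL2, MIR141, MIR222, MIR23B, MIR31HG, MIR429, NF2, OVOL1, ST14, TFF1, TNC and that feature of ZNF322. Across all features the correlation was 0.99 to 0.992 between arrays of 1 line and 0.98 to 0.984 between arrays of different lines. Counted once per gene symbol, 10775 genes were tested, of which 38.6% were called, 19.6% higher in MDA-MB-231 and 19% lower, and these shares are the background for every gene list below. At least 1 log2 apart were 0.863% of genes, 0.548% higher and 0.316% lower, and the arrays of the lines did not overlap for 55.3%. Some list members named below passed the level filter only through MDA-MB-231, such as SCEL, IVL, IL1RN, KRT20, PIP, SMAD3, VEGFC and MIR222. Others, such as IL33, GPX2 and HOXA2, passed it only through MDA-MB-468. The filter thus favoured the line where they are high, and they are included in the counts of their lists.

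**Figure D1:**
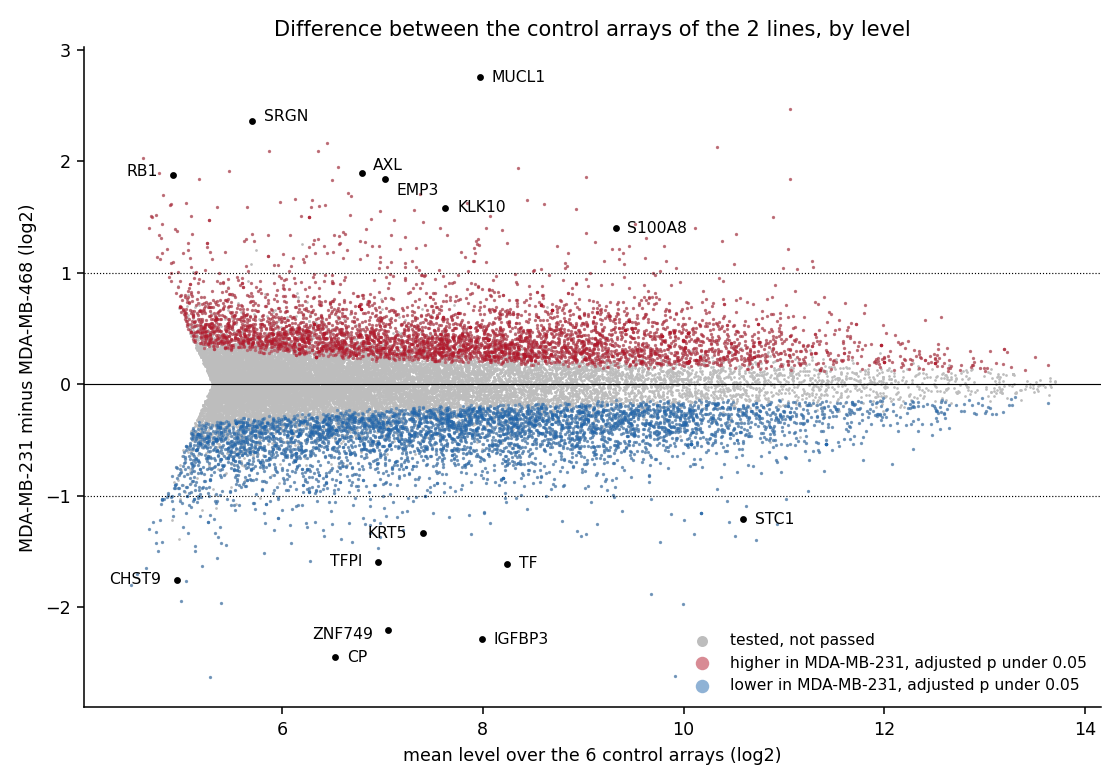
Each point is 1 tested feature, with its mean log2 level over the 6 control arrays on the horizontal axis and the MDA-MB-231 mean minus the MDA-MB-468 mean in log2 on the vertical axis. Red and blue points passed an adjusted p of 0.05 (4708 higher and 4793 lower in MDA-MB-231), grey points did not, and the dotted lines at 1 and -1 mark a 2-fold difference, beyond which 365 of the coloured points lay.

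The genes highest in MDA-MB-231 relative to MDA-MB-468 included MUCL1 and SRGN, which encode secreted or granule proteins, the receptor kinase gene AXL and the cell cycle brake RB1. MUCL1, a small mucin-like protein of breast epithelium, read 9.18, 9.48 and 9.39 on the 3 MDA-MB-231 arrays and 6.58, 6.73 and 6.48 on the 3 MDA-MB-468 arrays. The ranges do not touch, and the difference of 2.75 ± 0.0956 log2 (SE, n = 3 a line) is the largest among genes with a symbol, 6.74-fold (adjusted p = 5.52e-06, limma). SRGN encodes serglycin, the proteoglycan core of secretory granules, and stood at 6.99, 6.96 and 6.69 in MDA-MB-231 against 4.37, 4.70 and 4.47 in MDA-MB-468, a difference of 2.36 ± 0.132. AXL, a receptor tyrosine kinase common in mesenchymal tumour cells, gave 7.82, 7.87 and 7.53 against 5.90, 5.74 and 5.89, higher by 1.89 ± 0.108. LDHB, the lactate dehydrogenase subunit that favours the conversion of lactate to pyruvate, was higher by 1.90, with 5.75, 5.77 and 5.65 against 3.90, 3.70 and 3.88. EMP3, a small membrane protein, was higher by 1.84, G0S2, an inhibitor of triglyceride breakdown, by 1.83, and ROPN1B, a sperm flagellar protein also seen in basal-like tumours, by 1.84. The 20 were ranked by feature, and the others were TCEAL9, TPRXL, 1 feature of HERC2P10, KLK10, ENPP1, CD68, DKK1, TMEM52B, S100A8, EDNRB, CPA4 and CALB2, from 1.7 down to 1.36. HERC2P10 is a pseudogene whose probes may also read HERC2 and its other copies, and its brighter feature was lower in MDA-MB-231, at -0.36. In none of these 20 did the arrays of the lines overlap, which the choice of the 20 required, and 48.6% of all tested features met that condition too. Some of the 20 passed the level filter only through MDA-MB-231. RB1, SRGN, LDHB and ROPN1B, for example, lay at percentiles 24.9, 34.2, 22.5 and 29.4 of all features in MDA-MB-468.

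CP, IGFBP3, TF and TFPI, which encode secreted proteins, were among the genes lowest in MDA-MB-231 relative to MDA-MB-468. CP, the gene of ceruloplasmin, a copper-carrying ferroxidase, read 5.33, 5.26 and 5.31 in MDA-MB-231 and 7.71, 7.56 and 7.99 in MDA-MB-468. The MDA-MB-231 arrays were close to the array median, and the difference was -2.45 ± 0.115 (5.47-fold, adjusted p = 2.3e-05). IGFBP3, which binds insulin-like growth factors outside the cell, read 6.85, 6.84 and 6.83 against 8.54, 9.07 and 9.78, a difference of -2.29 ± 0.252. The MDA-MB-468 arrays spread over more than 1 log2 for this gene, replicate 3 being highest, and its SE is accordingly larger. TF, the iron carrier transferrin, read 7.38, 7.28 and 7.64 against 8.74, 8.83 and 9.57 (difference -1.61), and TFPI, the inhibitor of the tissue factor clotting pathway, 6.08, 6.30 and 6.09 against 7.91, 7.80 and 7.55 (difference -1.59). ZNF749, a zinc finger gene, was lower by 2.21, ZNF221 by 1.37 and ZNF322 by 1.39 for 1 of its features and 0.18 for the brighter one. The basal cytokeratin gene KRT5, the desmosomal cadherin gene DSC3, the calcium-regulating hormone gene STC1 and the interferon-induced IFIT1 were lower by 1.34, 1.22, 1.21 and 1.21. CHST9, MIR579, MIR544B, TMEM45A, AARD, MIR4458, RIMKLB, FMO6P and CATSPERB complete the 20, from -1.94 to -1.22. For MIR579 and MIR544B the same contrast on the separate set of arrays did not pass (adjusted p = 0.0864 and 0.144). Some of these 20 passed the level filter only through MDA-MB-468, such as CHST9 and MIR579, at percentiles 26.4 and 25.6 in MDA-MB-231.

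Of the genes reported as deleted or amplified in these lines, RB1 differed most. RB1, the retinoblastoma protein that holds E2F factors back, read 5.92, 5.88 and 5.76 on the MDA-MB-231 arrays and 3.84, 4.11 and 3.98 on the MDA-MB-468 arrays, a difference of 1.88 ± 0.129 log2 (adjusted p = 8.1e-05). The MDA-MB-468 level is at percentile 24.9 of all features and the MDA-MB-231 level at percentile 60.5. EGFR, the amplified epidermal growth factor receptor gene, read 11.09, 11.09 and 11.17 against 11.39, 11.36 and 11.50, lower by 0.30 in MDA-MB-231 (adjusted p = 0.00285), or by 0.0781 on the deposited scaling (adjusted p = 0.281), at percentile 98.2 of features in MDA-MB-231 and 98.7 in MDA-MB-468. LANCL2, its neighbour on chromosome 7, differed the other way, by 0.49. MTAP, the methylthioadenosine phosphorylase gene beside CDKN2A, was lower in MDA-MB-231 by 0.71, with 7.90, 7.99 and 7.84 against 8.64, 8.74 and 8.47, and CDKN2A, which encodes p16 and ARF, was lower by 0.33. CDKN2A lost its call in turn without MDA-MB-231 replicate 2 or 3 or MDA-MB-468 replicate 1 or 2 (adjusted p = 0.081 to 0.119). MTAP stood at percentile 84.6 of features on the MDA-MB-231 arrays and CDKN2A at percentile 74.7, so neither read near the bottom of the array in the line reported to lack them. SMAD4, the shared TGF-beta signal carrier that MDA-MB-468 is reported to lack, read 5.98, 5.6 and 5.66 against 5.59, 5.61 and 5.32, a difference of 0.24 ± 0.14 that did not pass (adjusted p = 0.217); on the deposited scaling it passed at 0.428. NF2, the merlin gene, was higher in MDA-MB-231 by 0.33, and CCNE1 and CCND1, G1 cyclins, by 0.43 and 0.35. Over the list of copy number and loss genes, 5 of 14 tested genes were higher and 4 lower (median 0.0669), or 7 and 1 on the deposited scaling.

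Epithelial genes went in both directions. Of 26 tested genes of adhesion and polarity, 7 were higher in MDA-MB-231 and 7 lower, with a median difference of -0.04; on the deposited scaling 14 were higher and 5 lower (median 0.17). CLDN4, a tight junction claudin, was lower by 0.69, and the desmosome genes DSP, DSC2 and DSG2 by 0.68, 0.68 and 0.51, with CLDN1 and OCLN, other tight junction proteins, lower by 0.34 and 0.32. OVOL1 and OVOL2, transcription factors that hold the epithelial state, were higher by 0.41 and 0.26, and so were the splicing regulator ESRP2 (0.31), the membrane protease ST14 (0.31), the claudin gene CLDN3 (0.28) and plakoglobin, JUP (0.30). EPCAM read 12, 11.90 and 11.94 against 12.10, 11.97 and 12.02 (difference -0.08, adjusted p = 0.231), and ESRP1, GRHL2, CLDN7 and CD24 did not pass either, at 0.04, -0.15, -0.15 and -0.06. OVOL1 lost its call without any 1 of 4 arrays and OVOL2 without any 1 of the 6 (adjusted p up to 0.132 and 0.117). On the deposited scaling EPCAM, ESRP1 and CD24 were called higher in MDA-MB-231, by 0.168, 0.267 and 0.169. With the replicate block CLDN7 and GRHL2 were called lower (-0.153, adjusted p = 0.0238, and -0.15, adjusted p = 0.0416), and GRHL2 also with arrays centred on their medians (-0.176, adjusted p = 0.0371).

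Mesenchymal genes were split as well, with the larger differences on the MDA-MB-231 side. Of 18 tested, 6 were higher in MDA-MB-231 and 7 lower, 5 of the 6 by at least 1 log2 (0.548% of all genes), while the median of the list was -0.25 (-0.271 to -0.00501 under the other settings). On the deposited scaling 7 were higher and 2 lower. SNAI2, the repressor of E-cadherin also called Slug, read 7.37, 7.33 and 7.0 against 5.98, 5.83 and 5.91, a difference of 1.33 ± 0.113. FOSL1, the AP-1 subunit FRA1, was higher by 1.27, ANXA1, annexin A1, by 1.10, and TAGLN, an actin-binding protein of smooth muscle, by 0.47. LOX and LOXL2, which cross-link collagen, were lower in MDA-MB-231 by 0.64 and 0.57, the growth factor PDGFC by 0.48 and the membrane peptidase MME by 0.34. LOXL2 lost its call without any 1 of the MDA-MB-231 arrays (adjusted p = 0.0668 to 0.108), and TAGLN without MDA-MB-231 replicate 2 (0.055). VIM has 3 tested features, at -0.63, -0.60 and -0.77 with adjusted p-values of 0.0919, 0.0331 and 0.0518, and thus 1 of the 3 passed. The first of these passed without MDA-MB-468 replicate 1 (-0.886, adjusted p = 0.0248) and with the spread shared over all 18 arrays (-0.616, adjusted p = 0.0487). The feature with the highest level read 7.10, 7.08 and 6.86 in MDA-MB-231 and 7.12, 7.47 and 8.32 in MDA-MB-468, where replicate 3 stood apart from the other 2. FN1 and MMP14, fibronectin and a membrane collagenase, did not pass (-0.25 and -0.01), and ZEB1, ZEB2 and TWIST1 fell below the level filter in both lines.

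Keratin genes went in opposite directions within the basal pair. KRT5 read 6.59, 6.71 and 6.89 in MDA-MB-231 and 8.0, 8.06 and 8.15 in MDA-MB-468 (difference -1.34 ± 0.0905), whereas KRT14, its usual filament partner, read 8.50, 8.53 and 8.70 against 7.20, 7.35 and 7.33 (difference 1.28 ± 0.0792). Of 14 keratins tested, 7 were higher in MDA-MB-231, KRT5 alone was lower, and the median was 0.39. KRT20, KRT80, KRT7, KRT4 and KRT16 were higher by 0.83, 0.60, 0.59, 0.41 and 0.37. KRT18 has 2 tested features, 0.79 (adjusted p = 6.65e-05) and 0.25 (0.0942), and KRT18 sequence is shared by many processed copies, so its value is uncertain. KRT8 and KRT19, the simple epithelial keratins, did not pass (-0.14 and -0.04).

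Basal breast and luminal markers were called in both directions. Among 13 tested basal genes, 7 were lower in MDA-MB-231 and 3 higher, with a median of -0.29 (-0.312 to -0.0346 under the other settings), and 5 were called each way on the deposited scaling. PROM1, the CD133 glycoprotein, was lower by 0.74, the Wnt antagonist SFRP1 by 0.71, SOX9, a progenitor transcription factor, by 0.55, and TRIM29 by 0.46, while ROPN1B, KRT14 and ELF5 made up the higher group. Among 21 luminal genes, 6 were higher and 6 lower, or 7 and 1 on the deposited scaling. CLCA2, PIP, SPDEF and MLPH were higher by 0.98, 0.68, 0.52 and 0.46, and CA12, FOXA1, TFF1 and GATA3 lower by 0.53, 0.35, 0.34 and 0.21. TFF1 and GATA3 lost their calls without any 1 of 5 and 4 of the arrays (adjusted p up to 0.118 and 0.0974). ESR1 did not pass (0.16, adjusted p = 0.372), and PGR fell below the filter.

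Few markers of other cells were tested: 4 leukocyte markers and 3 fibroblast and endothelial ones. In each list 1 was called, and so few genes cannot be set against the 38.6% called among all genes. Of 4 tested leukocyte markers only CD68 was called, with 7.89, 7.94 and 7.71 in MDA-MB-231 and 6.37, 6.32 and 6.43 in MDA-MB-468; it encodes a lysosomal glycoprotein that many cell lines also make. TYROBP (means of 6.08 and 5.96) and CSF1R (6.23 and 6.44) did not pass, CD14 and CD163 lay below the filter in both lines, and PTPRC, CD3D, CD3E and MS4A1 have no feature with a symbol. Of the fibroblast and endothelial markers, KDR, the VEGF receptor 2 gene, was lower in MDA-MB-231 by 0.97, VWF did not pass (0.29; 0.478 and passed on the deposited scaling), and PECAM1, DCN and LUM were below the filter. The part of other cells in the differences was not tested.

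Proteases, their inhibitors and squamous genes were called higher in MDA-MB-231 more often than the 19.6% background. Of 32 proteases and inhibitors, 13 were higher and 5 lower (median 0.23), and of 19 squamous and calprotectin genes 11 were higher and 3 lower (median 0.23). KLK10, a kallikrein-related serine peptidase, read 8.29, 8.49 and 8.48 against 6.93, 6.75 and 6.82, higher by 1.58 ± 0.0832, and KLK6, KLK5 and KLK7 were higher by 0.95, 0.72 and 0.53. The metalloproteinase inhibitors TIMP2, TIMP3 and TIMP1 were all higher, by 1.17, 0.64 and 0.48, and CPA4, a secreted carboxypeptidase, by 1.39. Beside TFPI, the genes lower in MDA-MB-231 were CTSS, a lysosomal cathepsin (0.77), SLPI, an elastase inhibitor (0.56), and the sheddases ADAM9 (0.53) and ADAM17 (0.52). S100A8 and S100A9 form calprotectin, a zinc- and calcium-binding dimer of inflamed epithelium. S100A8 read 10.00, 10.10 and 9.97 against 8.41, 8.73 and 8.74 (difference 1.4), and S100A9 was higher by 0.61. SCEL, CNFN and IVL, components of the cornified envelope, were higher by 1.27, 0.82 and 0.71, in contrast to DSC3, lower by 1.22. SCEL and IVL lay at percentiles 32.5 and 46.4 of all features in MDA-MB-468 and passed the level filter only through MDA-MB-231. Many of the squamous genes are short, 16 of 19 lying in the shortest quintile of gene spans, a property that moved with the difference over all genes as described below; its part in the result was not tested.

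Among 12 tested matrix genes, 5 were higher in MDA-MB-231: IGFBP7 (1.27), thrombospondin 1, THBS1 (1.09), the YAP target CCN2 (0.81), tenascin C, TNC (0.44), and perlecan, HSPG2 (0.34). IGFBP3 and FSTL1 (-0.42) were lower. HSPG2 lost its call without any 1 of 4 arrays (adjusted p = 0.0509 to 0.0664). Of 14 integrin and cell matrix adhesion genes, 3 were higher and 3 lower (7 and 1 on the deposited scaling), the largest being the tetraspanin gene CD82, lower by 0.54, and paxillin, PXN, higher by 0.39.

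**Figure D2:**
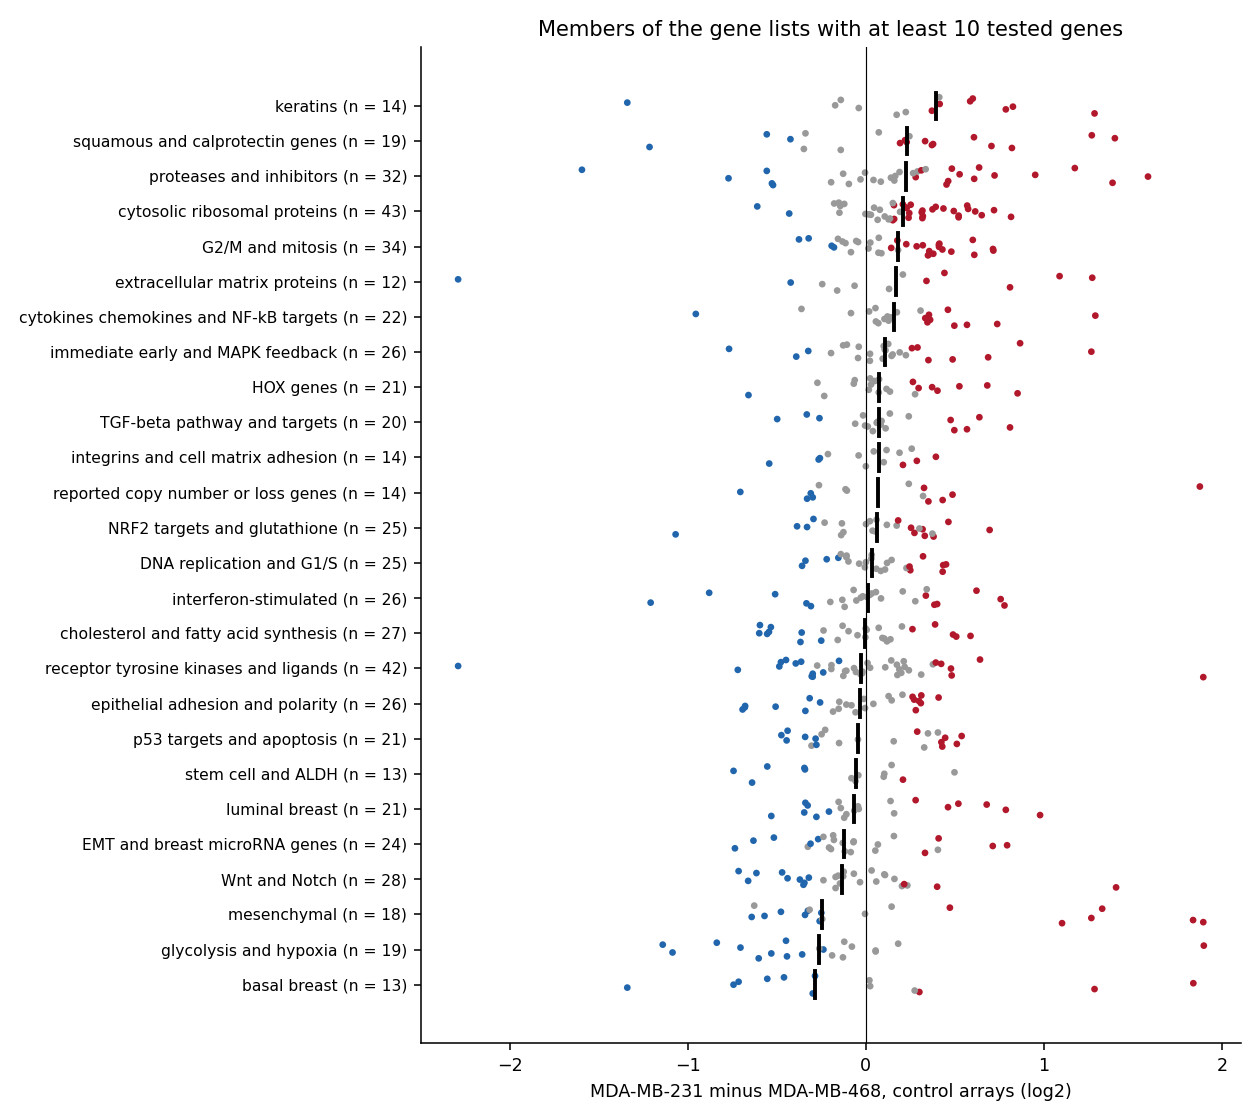
Each row is 1 of the gene lists with at least 10 tested genes, and each point is 1 gene at its MDA-MB-231 minus MDA-MB-468 difference in log2 on the horizontal axis; red and blue points passed an adjusted p of 0.05, grey did not, and the black bar is the list's median. The rows are sorted by median, from basal breast genes at -0.29 and glycolysis and hypoxia genes at -0.26 to keratins at 0.39.

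Genes in the list of receptor tyrosine kinases and ligands were called in both directions, and their balance turned with the scaling. Of 42 tested members, 12 were lower in MDA-MB-231 and 6 higher (median -0.03), whereas on the deposited scaling 6 were lower and 16 higher (median 0.15). Not all members are receptor kinases or their ligands. The lowest, at -2.29, was the binding protein gene IGFBP3, also counted among the matrix genes. AXL, the hepatocyte growth factor receptor MET (0.42), FGFR2 (0.48), the lymphatic ligand VEGFC (0.64), PDGFB (0.39) and EFNA5 (0.48) were higher. FGF2, a ligand without a signal peptide, was lower by 0.72 and VEGFA by 0.45. The receptors IGF1R, ROR1 and DDR1 were lower by 0.49, 0.36 and 0.30, and the cytokine receptor OSMR by 0.39. DDR1 has 4 tested features, all lower by 0.30 to 0.32, and it lost its call without MDA-MB-231 replicate 1 or 2 or MDA-MB-468 replicate 3 (adjusted p = 0.0695 to 0.0786).

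SPRY4 and DUSP6, feedback genes of the MAPK pathway, were higher in MDA-MB-231, and the transcription factor genes JUN, EGR1 and FOSL2 (-0.32) were lower. Of 26 tested immediate early and feedback genes, 7 were higher and 3 lower, or 15 and 1 on the deposited scaling. SPRY4 and DUSP6, which ERK induces and which damp its pathway, were higher by 0.87 and 0.69; DUSP6 read 7.48, 7.41 and 7.24 against 6.71, 6.68 and 6.68. DUSP4, DUSP5, SPRY2, ETV4 and ETV5, other genes of this output, did not pass, with differences between -0.04 and 0.15, though DUSP4, SPRY2 and ETV4 passed on the deposited scaling, at 0.274, 0.294 and 0.319. JUN read 8.03, 8.14 and 8.02 against 8.81, 8.69 and 9.01, lower by 0.77, while its partners JUNB and JUND were higher by 0.26 and 0.29. EGR1 was lower by 0.39 for 1 feature and at 0.13 (not passed) for another. JUNB lost its call without any 1 of 4 arrays (adjusted p = 0.0814 to 0.0957) and EGR1 without any 1 of 3 (0.0532 to 0.0641).

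Cytokine genes and NF-kB targets were called higher in 9 of 22 tested genes and lower in 1. IL1RN, the interleukin 1 receptor antagonist, read 6.2, 6.59 and 6.31 against 4.96, 5.26 and 5.01 (difference 1.29 ± 0.137), and the chemokine CCL28 was higher by 0.74. BMP4, BMP2, PTGES, CXCL16, IL32, CSF1 and ICAM1 were higher by 0.57 down to 0.33. BMP2, CSF1, ICAM1 and IL32 are near the threshold and lost their calls without MDA-MB-231 replicate 2 (adjusted p = 0.0543, 0.063, 0.0511 and 0.0799), CSF1 also without MDA-MB-468 replicate 3 (0.0517) and IL32 without 4 other arrays (up to 0.0846). IL33, a nuclear alarmin, was the gene lower in MDA-MB-231, by 0.96. Interferon-stimulated genes had no common direction, with 6 of 26 higher and 5 lower (10 and 2 on the deposited scaling): HERC5, IFITM2 and UBE2L6 at 0.78, 0.76 and 0.62 against SAMD9 at -0.88 and IFIT1 at -1.21.

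Wnt and Notch genes were lower in 9 of 28 tested genes and higher in 3 (median -0.14), whereas on the deposited scaling 5 were lower and 8 higher (median 0.04). DKK1, a secreted antagonist that binds LRP6, read 8.69, 8.69 and 8.83 against 7.40, 7.47 and 7.13, higher by 1.41 ± 0.0954. The Notch ligand JAG1 and the receptor NOTCH3 were lower by 0.66 and 0.61, the Notch target NRARP by 0.47, and the Wnt receptors LRP5, FZD7, FZD4 and LRP6 by 0.44, 0.35, 0.35 and 0.32. In the TGF-beta list 5 of 20 genes were higher and 3 lower (10 and 1 on the deposited scaling), with SMAD3 at 0.64 and SKIL, a repressor of the pathway, at -0.50.

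Genes of glycolysis and the hypoxia response were lower in MDA-MB-231 in 10 of 19 tested genes and higher in 1, LDHB. Hypoxia-inducible factors, which are destroyed in the presence of oxygen after hydroxylation by EGLN enzymes, bind the letters ACGTG or GCGTG in their target promoters. NDRG1, a stress-induced growth regulator, read 6.55, 6.72 and 6.75 against 7.40, 7.74 and 8.31 (difference -1.14 ± 0.197), and EGLN3, one of the hydroxylases, 5.64, 5.69 and 5.62 against 6.45, 6.74 and 7.03 (difference -1.09 ± 0.142). PGK1, phosphoglycerate kinase, read 8.19, 8.20 and 8.11 against 8.86, 8.94 and 9.20, lower by 0.84. The arrays of the lines did not overlap for these 3 genes, which also held for 55.3% of all tested genes. MDA-MB-468 replicate 3 was the highest array for each. KDM3A, a histone demethylase, was lower by 0.70, adrenomedullin, ADM, by 0.60, the carbonic anhydrase CA12 by 0.53, VEGFA by 0.45, ANKRD37 by 0.44, BNIP3L, a mitophagy receptor, by 0.36 and the hexokinase HK1 by 0.24. HK1 lost its call without any 1 of 5 arrays (adjusted p = 0.0514 to 0.0666), and BNIP3L without MDA-MB-231 replicate 2 (0.0541). Leaving out 1 array at a time, 8 to 10 members of the list were lower. The list's median was -0.26. It was -0.09, with 7 lower and 4 higher, on the deposited scaling, which adds about 0.19 to the differences. Of the 10, 7 have a RefSeq promoter window (GRCh38.p14, a window of 300 bases at the start of the gene). Those of PGK1, at chrX:78103998-78104297 on the plus strand, and ANKRD37, at chr4:185396591-185396890 on the plus strand, are shown because they are the 2 that hold ACGTG on either strand; capitals mark these letters or their reverse complement, CACGT.
PGK1: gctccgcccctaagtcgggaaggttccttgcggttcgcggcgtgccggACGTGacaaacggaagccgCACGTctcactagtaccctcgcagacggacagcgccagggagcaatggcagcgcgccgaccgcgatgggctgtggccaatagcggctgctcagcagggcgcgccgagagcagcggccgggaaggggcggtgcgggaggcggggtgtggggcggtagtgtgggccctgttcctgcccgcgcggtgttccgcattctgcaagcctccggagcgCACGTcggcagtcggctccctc
ANKRD37: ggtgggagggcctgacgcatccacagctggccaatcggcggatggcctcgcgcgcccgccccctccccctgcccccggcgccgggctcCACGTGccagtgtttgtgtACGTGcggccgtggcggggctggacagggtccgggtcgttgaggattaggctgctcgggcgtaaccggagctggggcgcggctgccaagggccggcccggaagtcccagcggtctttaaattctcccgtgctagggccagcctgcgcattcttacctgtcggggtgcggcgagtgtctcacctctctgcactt
Each window has 3 matches, and 2 of those of ANKRD37 overlap as CACGTG, which reads the same on both strands. The motif occurs in 21.4% of all 35116 promoter windows, in 2 of the 7 windows of lower genes and in 6 of the 8 windows of list members that did not pass. GCGTG occurs in 36.5% of all windows, in 4 of these 7 and in 3 of the 8.

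Other metabolic lists were called in both directions. Of 27 cholesterol and fatty acid genes, 8 were lower, including INSIG1 (-0.54), HMGCS1 (-0.55), SQLE (-0.53) and STARD4 (-0.60), and 5 were higher, including the desaturases FADS2 (0.59) and FADS1 (0.51). FDPS, also among the 5 at 0.49, has a second feature at -0.10. On the deposited scaling 7 of the 27 were lower and 12 higher. Of 25 NRF2 target and glutathione genes, 8 were higher (15 on the deposited scaling), the largest GSTM4 at 0.69, and 4 lower, the largest GPX2, the epithelial glutathione peroxidase, at -1.07. GSTM4 has near-identical neighbours, so its value is uncertain. The p53 and apoptosis list had 6 genes in each direction out of 21 (9 higher and 2 lower on the deposited scaling), with PMAIP1 at 0.54 and RRM2B at -0.47. Of 13 tested stem cell and ALDH genes, CD44 was higher (0.21) and 5 were lower, among them ALDH2 (-0.64) and SOX2 (-0.34), whereas on the deposited scaling 6 were higher and 3 lower (median 0.168 in place of -0.06). Of 5 tested antigen presentation genes, CALR was higher (0.14) and B2M lower (-0.20; a second B2M feature did not pass, at -0.13). SOX2 was not called with any 1 of the 6 arrays left out (adjusted p = 0.0672 to 0.113), CALR without any 1 of 4 (0.0504 to 0.0732) and CD44 without MDA-MB-468 replicate 3 (0.0549).

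Mitotic genes were called higher in MDA-MB-231 in 18 of 34 tested G2/M genes and lower in 4, with a median of 0.18 on these arrays and 0.16 on the separate set. The anaphase activator CDC20 read 11.01, 11.10 and 11.04 against 10.30, 10.41 and 10.28 (difference 0.72 ± 0.0514), the kinases AURKB and PLK1 were higher by 0.61 and 0.60, CDCA8, a partner of AURKB, by 0.71, and the mitotic cyclin CCNB1 by 0.48. PRC1, a spindle midzone protein, and TOP2A, the topoisomerase of dividing cells, were lower by 0.38 and 0.32. Genes of DNA replication and G1/S had 6 of 25 higher and 4 lower, or 13 and 1 on the deposited scaling. Among HOX genes 7 of 21 were higher and 1 lower: HOXB2 (0.85), HOXC13 (0.68) and HOXC12 (0.53) led, and HOXA2 was lower by 0.66. None of 7 tested cancer testis antigens passed, with differences from -0.22 to 0.19 (2 were higher on the deposited scaling).

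Ribosomal protein genes were higher in 25 of 43 tested genes and lower in 2, with a median of 0.21. RPL24, RPL8 and RPL29 were higher by 0.82, 0.72 and 0.65, and RPS23 and RPL34 lower by 0.61 and 0.43. These genes have many processed copies in the genome, so single values are uncertain. Leaving out 1 array at a time gave 17 to 24 higher genes. Families picked after their values were seen included mitochondrial ribosomal proteins, with 42 of 73 higher and 6 lower (median 0.26), and zinc finger genes named ZNF, with 38 of 415 higher and 135 lower (median -0.15, but 0.03 on the deposited scaling).

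Gene span moved with the difference between the lines. The 9478 protein-coding genes were sorted by the length of the gene on the chromosome. In the shortest quintile (up to 8.27 kb) 562 genes were higher in MDA-MB-231 (29.6%) and 127 lower (6.7%). In the longest quintile (from 83.5 kb) 245 were higher (12.9%) and 616 lower (32.5%). The medians of the quintiles ran 0.128, 0.0701, 0.0188, -0.0347 and -0.0944. On the deposited scaling they ran 0.307, 0.25, 0.202, 0.145 and 0.0841. The order by span was the same there, but the medians of the long genes were no longer negative. Of the ribosomal protein genes 32 of 43 lay in the shortest quintile, and with the median of its own span quintile taken from each gene their median went from 0.21 to 0.10. For the mitotic list the same step gave 0.185, for glycolysis and hypoxia -0.26 and for the ZNF genes -0.18. Other lists were also rich in short genes: 17 of 20 HOX genes, 9 of 14 keratins and 15 of 26 immediate early and feedback genes lay in the shortest quintile. Their medians went from 0.07 to 0.04, from 0.39 to 0.26 and from 0.11 to 0.02. The part of span in each list's counts was not tested.

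Neighbouring genes were read together in map order. In runs of 25 neighbouring tested genes, of which there were 10218 overlapping ones, the median difference was below -0.204 in 5% and above 0.187 in 5%. The lowest run, from RWDD1 to MED23 on chromosome 6, had a median of -0.48, with 16 genes lower in MDA-MB-231 and 2 higher, and the run from BMP5 to HMGN3 on the same chromosome had -0.41, also with 16 lower and 2 higher. On chromosome 12, SNRPF to TDG had 13 lower and none higher (median -0.40). The highest run, FXYD5 to APLP1 on chromosome 19, had 14 higher and 1 lower (median 0.36), followed by MARK2 to ARL2-SNX15 on chromosome 11 (median 0.29) and CES1P1 to CCDC102A on chromosome 16 (median 0.29). In the lowest run ECHDC1, SERINC1, NCOA7 and KPNA5, a nuclear import receptor, differed most, at -0.80, -0.79, -0.71 and -0.62, and in the chromosome 12 run DRAM1, an autophagy regulator (-1.11), and TMPO, a nuclear lamina protein (-0.67). CD22 (1.13) and COX6B1, a subunit of cytochrome oxidase (0.72), led the chromosome 19 run. The chromosome 16 run holds 5 tested metallothionein genes, zinc- and copper-binding proteins, among them MT1F (1.01), MT1X (0.61) and MT2A (0.54). Taking out the span quintile's median left -0.407, -0.315 and -0.306 for the 3 low runs, and 0.272, 0.183 and 0.0571 for the 3 high ones. The runs were found by their values, so these medians are descriptions. On the separate arrays the 3 low runs had medians of -0.562, -0.546 and -0.357, and the 3 high ones 0.407, 0.217 and 0.298.

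**Figure D3:**
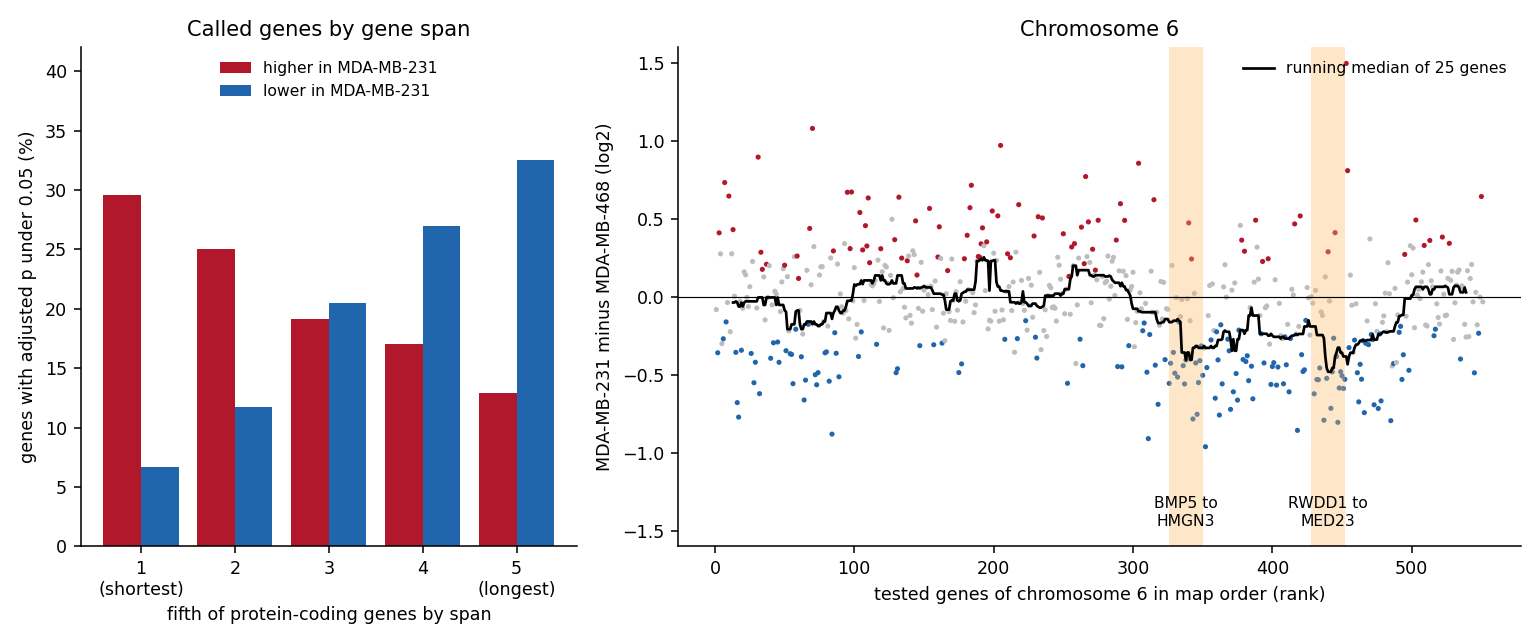
The left panel gives, for each quintile of 9478 protein-coding genes by span, the percentage of genes called higher (red) or lower (blue) in MDA-MB-231, from 29.6% higher and 6.7% lower in the shortest quintile to 12.9% and 32.5% in the longest. The right panel gives each tested gene of chromosome 6 in map order with its difference in log2, the running median of 25 genes as a line, and the runs RWDD1 to MED23 and BMP5 to HMGN3 shaded.

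Of 373 tested microRNA genes named MIR, separate host genes not counted, 26 were higher (6.97%) and 45 lower (12.1%). The shares over all genes were 19.6% and 19%. Dim features of any kind were also called less often, 21.3% and 18.9% in the 2 lowest quintiles of level. The part of level in the microRNA counts was not tested. In the list of microRNAs linked to breast cancer and to the epithelial state, 4 of 24 were higher and 5 lower (4 and 3 on the deposited scaling). The array reads precursor or host transcripts, not the mature strand. The mature sequences of the called members are shown to set out which share a seed, bases 2 to 8 in capitals, the part that pairs with targets (RefSeq, GRCh38.p14).
hsa-miR-221-3p: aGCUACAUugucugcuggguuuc
hsa-miR-222-3p: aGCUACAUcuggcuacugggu
hsa-miR-141-3p: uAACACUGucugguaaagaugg
hsa-miR-429: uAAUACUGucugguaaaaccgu
hsa-miR-21-5p: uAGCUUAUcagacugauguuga
hsa-miR-29c-3p: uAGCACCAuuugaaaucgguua
hsa-miR-7-5p: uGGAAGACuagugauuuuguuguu
hsa-miR-23b-3p: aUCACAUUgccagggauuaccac
MIR221 and MIR222 lie side by side on the X chromosome, at chrX:45746180-45746202 and chrX:45747036-45747056 on the minus strand, and their mature strands share the seed GCUACAU. Both were higher in MDA-MB-231. MIR221 read 5.99, 6.27 and 6.09 against 5.6, 5.08 and 5.53 (difference 0.71 ± 0.153) and MIR222 5.38, 5.69 and 5.06 against 4.65, 4.52 and 4.57 (difference 0.79 ± 0.169), and both passed on the separate arrays too (adjusted p = 0.00949 and 0.0473). MIR141 and MIR429, of the family that represses ZEB1 and ZEB2, were higher by 0.33 and 0.41; their seeds, AACACUG and AAUACUG, differ. MIR21, MIR29C, MIR7-1 and MIR23B were lower by 0.74, 0.63, 0.52 and 0.31, and MIR31HG, the host gene of miR-31, by 0.27. None of these 7 passed on the separate arrays. MIR141, MIR429, MIR23B and MIR31HG each lost the call without any 1 of 5 arrays (adjusted p up to 0.135, 0.136, 0.0903 and 0.0923). MIR222 did not pass with the spread shared over all 18 arrays (0.79 became 0.82, adjusted p = 0.245).

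The same line contrast on the 6 arrays with anti-AL078604.2 ASO shares no array with the control contrast, though both use the same 2 lines and 1 study. There 6519 of the 28092 features passed (23.2%). Of the 9501 control calls, 5235 passed in the same direction (55.1% of the control calls and 80.3% of the calls on the other arrays), 3 passed in the opposite direction, and 97.5% had the same sign against 81.3% of all tested features. Of the 365 features at least 1 log2 apart, 353 kept the sign, 298 passed and 211 were again at least 1 log2 apart. The count on these arrays depended on single ones: it fell to 2585 without MDA-MB-231 replicate 2 and to 3181 without MDA-MB-468 replicate 2. All of the 20 features with the largest positive differences passed there, as did 18 of the 20 with the largest negative ones. CP differed by -3.11 on these arrays, TF by -2.27 and STC1 by -1.82, while CALB2, a calcium-binding protein, gave 0.73 in place of 1.36. The test of a change in line difference between the ASOs, over all 12 arrays, passed for 0 features by limma, with 1400 features (4.98%) at an unadjusted p under 0.05 and a lowest adjusted p of 0.947. With 1 of the 12 arrays left out, 0 features passed and 1063 to 2880 had an unadjusted p under 0.05. The count was 2880 without MDA-MB-468 anti-AL078604.2 replicate 1 and 1824 without MDA-MB-231 anti-AL078604.2 replicate 3. The 0 does not show that the line difference was equal under both ASOs.

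**Figure D4:**
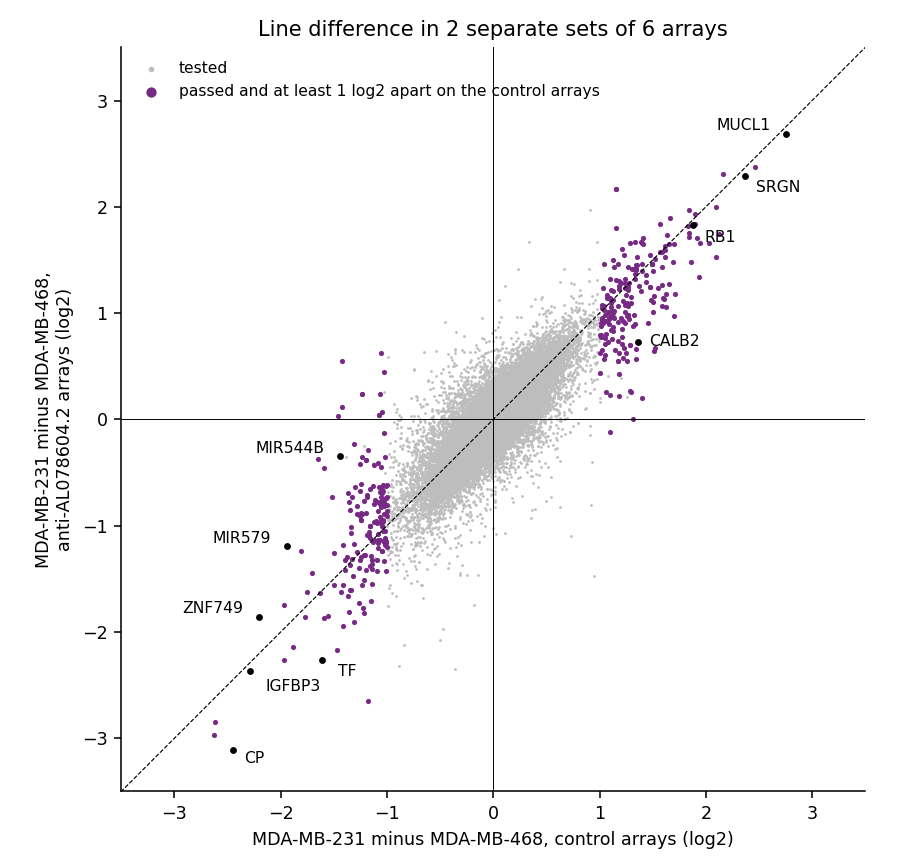
Each point is 1 tested feature, with the MDA-MB-231 minus MDA-MB-468 difference in log2 on the control arrays (horizontal) and on the anti-AL078604.2 arrays (vertical); the dashed line marks equality. The purple points are the 365 features that passed and were at least 1 log2 apart on the control arrays, of which 353 have the same sign on both axes.

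Set beside SKBR3, the pair of triple-negative lines had the fewest features far apart. With the 9 control arrays scaled together, 391 features were at least 1 log2 apart between MDA-MB-231 and MDA-MB-468, 593 between MDA-MB-231 and SKBR3 and 755 between MDA-MB-468 and SKBR3. These 3 counts share arrays, so no test was made between them. The SKBR3 arrays had their own control ASO and deposited medians of 4.56 to 4.6. The medians were 5.41 for MDA-MB-231 and 5.21 to 5.22 for MDA-MB-468. Line, experiment and deposited scaling thus cannot be told apart in the counts with SKBR3. For 18 of the 20 features lowest in MDA-MB-231, CP, IGFBP3, TF and KRT5 among them, the SKBR3 level was nearer to that of MDA-MB-231, and the same held for 12 of the 20 highest. RB1 read 5.62, 3.70 and 4.96 and AXL 7.52, 5.61 and 7.23 in the order MDA-MB-231, then MDA-MB-468, then SKBR3.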

How the data were processed

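The deposited table holds 1 value per feature and array, which the authors made from CEL files; the submitters' processing notes name the Transcriptome Analysis Console, and its version and algorithm are not given in the sources used here. From their range (1.32 to 13.84) the deposited values are taken as log2 signal. Their array medians differ by line, so the 6 control arrays were quantile normalized together. Features with a group mean above the median of all features in at least 1 line were tested (28092 of 53617; 11586 with a symbol) with limma 3.58.1 in R 4.3.3 (lmFit, eBayes with an intensity trend, Benjamini-Hochberg over all tested features, 4 residual and 4.57 prior degrees of freedom). Control probes are not marked in the table. Symbols come from the platform annotation: 16098 features have 1 symbol, 0 have several and 37519 have none. The feature with the highest mean stands for a gene in lists, counts of genes, spans and runs; the 20 largest differences each way were ranked by feature. An exact permutation test of 3 against 3 arrays cannot give a p below 0.1. On data simulated for the control comparison (27480 features), 153 of 200 changed features were recovered, with 10 other calls. The changed features all lay above the median level, and the noise was independent between features. Far more features differed in the real data (9501 called), so these rates do not carry over to it.

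The comparison, the 30 gene lists, and the rule for named genes were chosen with earlier results of these data known. The rule takes the 20 largest differences in each direction among features with a symbol that passed and whose lines do not overlap, and all called members of a list up to 10 (otherwise the 10 with the smallest p and any at least 1 log2 apart). It also takes the cell type markers and leading members of the extreme runs, and allows any copy number or microRNA list member. Not every gene that the rule covers is named above, the markers MSN and AGR2 being left out, for example. Other list members named as examples were chosen after their values were seen. Replicate numbers are shared between the lines in the titles, with nothing to say that they pair the arrays.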

Additional observations from a re-analysis of the deposited data

How the results depend on the processing

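Counts of called features stayed within 1.5 times the reported count except as follows. On the deposited values with no further normalization, 10508 features were called higher and 2240 lower, 329 higher and 85 lower by at least 1 log2, and 10315 on the anti-AL078604.2 arrays. Features at least 1 log2 lower numbered 326 without a filter on dim features and 95 with the filter applied to both lines. Leaving out 1 control array at a time gave 6948 to 8354 called features, and leaving out 1 anti-AL078604.2 array (chosen after seeing the data) gave 2585 to 7002 on those arrays, lowest without MDA-MB-231 replicate 2 (2585) and MDA-MB-468 replicate 2 (3181). The medians of the 6 chromosome runs moved by more than the replicate SD only on the deposited values. Of 200 called genes named in the text, 24 lost the call on the deposited values, 23 with the spread shared over all 18 arrays, 1 to 8 under the others that lost any, and 13 to 20 with 1 control array left out. Genes below the array median in 1 line, RB1, SRGN, LDHB and CP among them, were not tested with the filter applied to both lines. They are not counted as lost there. B2M changed sign on the deposited values, to 0.0236, and FDPS when the feature with the smallest spread stood for a gene, to -0.101. Across the arrays, deviations of same-numbered ones from their line's mean correlated at 0.13, 0.018 and 0.12. Each MDA-MB-231 array correlated best with the MDA-MB-468 array of its own number. That is at most a weak hint, since deviations from a mean of 3 arrays are not independent. With the replicate block 9946 features were called (4858 higher, 5088 lower), 6739 on the anti-AL078604.2 arrays and 0 for the difference between ASOs, and 6 named genes lost their calls while CLDN7 and GRHL2 gained one. With 3 arrays a line, differences under 0.118 log2 were never called. In the lowest quintile of levels 21.3% of features were called against 57% in the highest, and at low signal small differences may go undetected.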
